A study of Homo sapiens with 10 samples.

Results

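The BCL2 family decides at the mitochondrion whether a cell enters apoptosis. Its genes were read in 10 RNA-seq libraries of ARPE-19, an established human retinal pigment epithelium (RPE) cell line. The 10 genes described here were taken by symbol from the count table: the pro-survival genes BCL2, BCL2L1, BCL2L2 and MCL1, the effector BAK1, and the BH3-only genes BCL2L11, BID, BAD, BIK and PMAIP1. They are 10 of 22626 genes in the table, and all 10 were among the 14936 genes left by a filter on low counts. The control group (5 libraries) was grown with glucose at 5.5 mM plus mannitol at 32 mM, an osmotic partner that cells do not use as fuel, and the high glucose (HG) group (5 libraries) with D-glucose at 37.5 mM and no mannitol. Both were treated for 48 h, carried no genetic change, and came from the same line. Control libraries carry the replicate numbers of their labels, and HG libraries the numbers of their columns in the table (HG_1 to HG_5), since the labels letter them and do not tie a letter to a column. The labels do not say whether the 5 libraries of a group came from separate cultures, so each p-value measures the spread between these libraries only, which may be technical.

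Pro-survival proteins hold a groove into which a short helix of the death-promoting members, the BH3 motif, is bound. BAK1 and its relative BAX form pores in the outer mitochondrial membrane when they are set free or activated, and cytochrome c then leaves and switches on caspases. The BH3-only proteins are the sensors: they occupy the groove of the pro-survival proteins, and some also activate the effectors directly. In the RPE, a tissue that hardly divides and bears a high oxidative load, this balance is known mainly for its part in cell loss. RNA levels do not show the cleavage, phosphorylation or turnover by which many of these proteins are controlled.

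The stretch that all 10 genes share is the BH3 motif, and it is shown here because it is what defines them as 1 family. Each sequence is 16 codons of the coding strand (48 bases, GRCh38 with GENCODE annotation), read 5′ to 3′, and the capitals mark the 6-codon core found in the translated coding sequence: leucine or methionine, any 3 residues, glycine or serine, aspartate.
BCL2L1 (chr20:31721916-31721963, minus strand, exon 2 of 3): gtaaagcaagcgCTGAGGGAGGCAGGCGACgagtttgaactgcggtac
MCL1 (chr1:150578859-150578906, minus strand, exon 1 of 3): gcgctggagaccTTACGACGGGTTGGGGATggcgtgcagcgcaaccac
BCL2L2 (chr14:23307891-23307938, plus strand, exon 3 of 4): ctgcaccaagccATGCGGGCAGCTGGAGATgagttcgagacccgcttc
BCL2 (chr18:63318343-63318390, minus strand, exon 1 of 2): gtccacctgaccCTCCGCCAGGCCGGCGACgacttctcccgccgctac
BAK1 (chr6:33575381-33575428, minus strand, exon 4 of 6): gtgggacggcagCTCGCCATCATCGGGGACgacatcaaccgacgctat
BAD (chr11:64271616-64271663, minus strand, exon 2 of 3): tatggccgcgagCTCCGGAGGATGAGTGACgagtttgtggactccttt
BID (chr22:17739409-17739456, minus strand, exon 4 of 6): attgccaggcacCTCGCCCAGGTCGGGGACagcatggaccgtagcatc
PMAIP1 (chr18:59902661-59902708, plus strand, exon 2 of 2): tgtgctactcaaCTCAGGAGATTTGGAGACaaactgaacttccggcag
BCL2L11 (chr2:111150091-111150138, plus strand, exon 4 of 5): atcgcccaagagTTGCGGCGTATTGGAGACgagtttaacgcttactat
BIK (chr22:43127704-43127751, plus strand, exon 3 of 5): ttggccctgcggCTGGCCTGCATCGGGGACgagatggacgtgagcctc

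All 10 windows lie in coding exons. The aspartate codon that closes the core encoded the same residue in 10 of 10 windows, which the search pattern required. The first codon of the core was leucine in 9 of 10, with methionine in BCL2L2, and the fifth was glycine in 9 of 10, with serine in BAD. At both positions the pattern allowed no other residues, so the low variety there was also set by the search. The second codon of the core had 2 different residues, the commoner in 7 of 10 windows, and the other 12 positions had 4 to 7 different residues. The closest pair at the residue level was BCL2L1 and BCL2L2, with 10 of 16 residues and 29 of 48 bases the same. The pair with the fewest residues in common was BCL2L2 and BID, with 2 of 16, and by bases it was MCL1 and BAD, with 14 of 48. BID contained 2 stretches that matched the pattern, and the later one is shown. The window is not in every transcript: 8 of the 17 coding transcripts of BCL2L11 contained it, and 4 of the 6 of BCL2L2, whereas all 3 coding transcripts of BCL2, MCL1 and BAK1 did. A count summed over a gene does not separate transcripts with the motif from those without.

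The libraries held 32448991 to 45864176 counts. TXNIP, a gene that is induced by glucose, served as the check of the labels: it was at 0.978 ± 0.224 CPM (counts scaled to library size, SD, n = 5) in control and 8.72 ± 2.76 (n = 5) in HG, and no HG library overlapped a control library. Control 2 and HG_1 stood apart from the other 8 libraries. In these 2, the difference of log2 CPM from the mean of the library's group rose with the GC content of the transcript. The slope was 0.147 and 0.203 per 10 percentage points, against −0.0717 to −0.00727 in the others. Slopes balance out within a group by this centring, so the negative values are not a measured fall. Of 17 RPE markers, 13 passed the filter and 4 were lower in HG, beside 7.8% of all genes tested (KRT18, KRT8, EZR and PMEL, the first a keratin of simple epithelia, with a log2 fold change of −0.68). The defining visual cycle gene RPE65 had 0 to 6 counts per library, and TTR, a transport protein gene of the mature RPE, had 0. BEST1 ranged from 0.577 to 551 CPM among the control libraries. Of 15 markers of other cell types, 5 passed the filter and 3 were lower in HG, COL1A1, PDGFRB and ACTA2, and 7.8% of all genes tested were lower. The T cell marker CD3E, the endothelial marker CDH5 and the photoreceptor marker CRX were at 0 counts in all 10 libraries, whereas VWF, also endothelial, had 0 to 24 counts and NRL, also of photoreceptors, 17 to 43. In a bulk sample, fewer cells of a type and less RNA per cell cannot be told apart.

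Compared per transcript length, as FPKM (fragments scaled to transcript length and library depth), the 10 genes spanned a wide range of levels in both groups. BCL2L1 had the highest level, at 125 ± 4.60 FPKM in control (SD, n = 5). MCL1 followed with 56.0 ± 4.58, then BAD with 41.8 ± 5.31, BAK1 with 21.3 ± 2.40, BID with 12.2 ± 1.46, BCL2L2 with 12 ± 0.431, PMAIP1 with 6.02 ± 0.784 and BCL2L11 with 3.20 ± 0.236. BCL2, the gene that gave the family its name, was at 0.955 ± 0.0975, and BIK at 0.364 ± 0.209. Neighbours in this order overlapped between libraries for MCL1 and BAD (48.0 FPKM for MCL1 and 49.9 for BAD in control 2) and for BID and BCL2L2. In HG, BCL2L2 was at 13.5 ± 0.980 and BID at 10.2 ± 0.934, so these 2 genes changed places, and the order of the other means was the same.

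**Figure D1:**
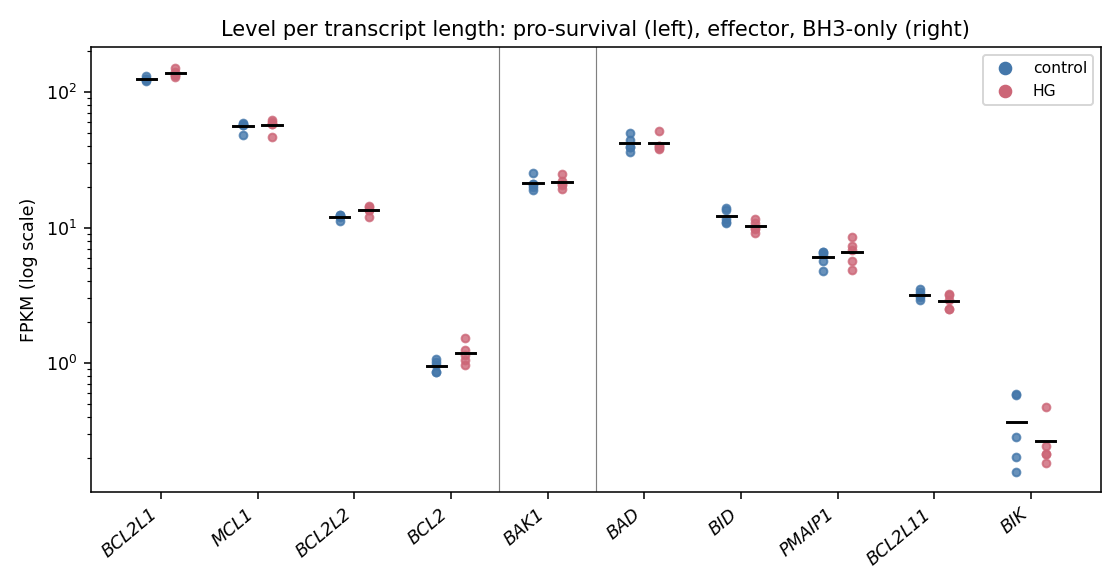
FPKM of each gene on a log axis, with 1 point per library (control blue, HG red) and a bar at the group mean, for 5 libraries per group. BCL2L1 lies near 125 FPKM in control and BCL2 and BIK lie near or under 1 FPKM, whereas the 2 groups lie close together for every gene.

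Among the pro-survival genes, BCL2L1 made up 64.4 ± 2.36% of the summed FPKM in control and 65.6 ± 3.55% in HG (SD, n = 5 each). MCL1 made up 28.9 ± 2.34% and 27.3 ± 3.02%, BCL2L2 6.20 ± 0.186% and 6.45 ± 0.503%, and BCL2 0.493 ± 0.0484% and 0.569 ± 0.108%. In both groups, then, BCL2L1 and MCL1 carried most of the summed FPKM of these 4 genes. The sum leaves out BCL2L2-PABPN1, a read-through gene that overlaps BCL2L2, at 25.7 FPKM in control and 31.6 in HG. Part of the BCL2L1 transcript is shared with an antisense gene, as given below. The summed FPKM of the 4 genes was 191.5 to 196.1 in the control libraries and 205.0 to 213.5 in the HG libraries, without overlap, with means of 193.8 ± 1.94 and 209.3 ± 3.68. The sum is a description of the list and was not tested. For single genes, on CPM, 13.6% of all genes tested separated without overlap. BCL2L1, the largest part of the sum, was at 125 FPKM in control and 137 in HG. Its difference did not pass the threshold used below (adjusted p = 0.20, edgeR). In HG_1, BCL2L1 was at 152 FPKM, its highest of the 10 libraries, and MCL1 at 47.0, its lowest. Among the 5 BH3-only genes of the list, BAD made up 65.6 ± 3.35% of the summed FPKM in control and 67.5 ± 3.41% in HG. BID made up 19.2 ± 2.07% and 16.5 ± 0.563%. The remainder of this sum was PMAIP1, BCL2L11 and BIK. Other BH3-only genes lie outside the sum: mean FPKM in control and HG was 11.2 and 13.4 for BBC3, 2.34 and 3.95 for HRK, and 1.18 and 1.04 for BMF. The sum of the 5 BH3-only genes was 59.4 to 71.9 FPKM in control and 57.6 to 70.6 in HG, so the groups overlapped.

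Between the groups, 1 of the 10 genes was called at an adjusted p under 0.05 (edgeR's quasi-likelihood test, Benjamini-Hochberg over all 14936 genes), BCL2L2, which was higher in HG. Over all genes tested the share called was 15.4%, with 7.62% higher and 7.8% lower in HG, so the share of the 10 genes was near that of the whole table. At an unadjusted p under 0.05 the number was 4, with BCL2, BCL2L11 and BID beside BCL2L2, and 28.5% of all genes passed that threshold. The median log2 fold change was 0.0145 over the 10 genes, 6 of them positive, and 0.00132 over the table, where 50.2% were positive. By role, all 4 pro-survival genes had positive values with a median of 0.17, and 4 of the 5 BH3-only genes had negative values with a median of −0.16. Of these signs, those of MCL1 (0.02) and BAD (−0.01) changed with single libraries, and among the other BH3-only genes HRK and BBC3 had positive values and BMF a negative one. DESeq2 and limma-voom each called BCL2L2 alone.

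**Figure D2:**
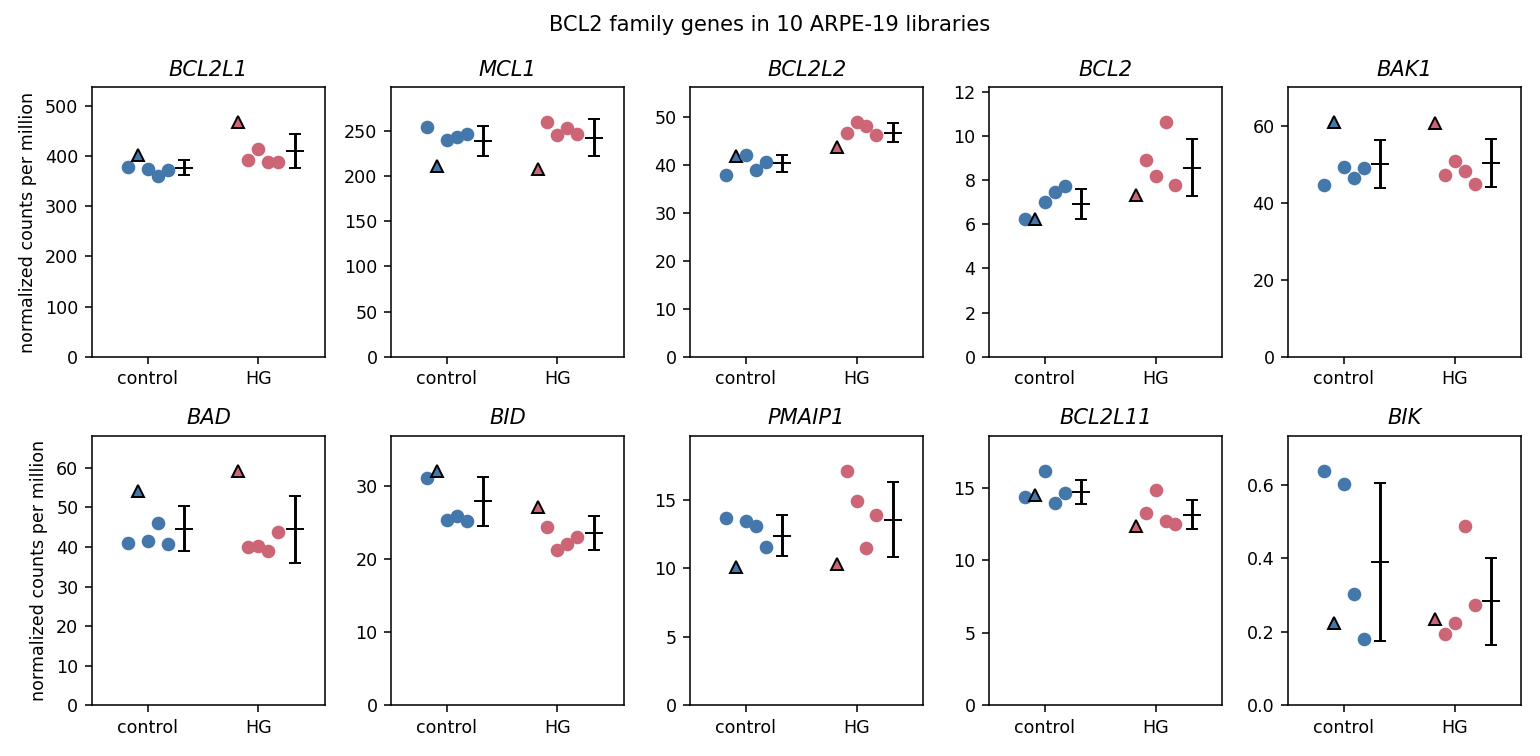
Normalized counts (CPM) of each gene in the 5 control (blue) and 5 HG (red) libraries, with axes from 0, bars for mean ± SD and triangles for control 2 and HG_1, which stand apart in GC content. BCL2L2 is the gene whose HG libraries, from 43.7 to 48.9, all lie above its control libraries, from 37.9 to 42.0.

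BCL2L2 encodes BCL-w, a pro-survival protein close to BCL-XL (ENSG00000129473, chr14:23298790-23311759, plus strand). It was at 37.9, 42.0, 42.0, 39.0 and 40.7 CPM in control 1 to 5, and at 43.7, 46.7, 48.9, 48.2 and 46.2 CPM in HG_1 to HG_5. Every HG library was above every control library, a separation that 13.6% of all genes tested showed in either direction. The mean rose from 40.3 ± 1.81 to 46.7 ± 2.00 CPM (SD, n = 5 each), a log2 fold change of 0.21 (SE 0.0504, 95% interval 0.10 to 0.32) or 1.16-fold, with an adjusted p of 0.0160 (edgeR). A two-sided exact permutation test on log2 CPM gave p = 0.00794, the smallest that 5 libraries against 5 allow. The gene stayed past the threshold in 10 of 10 fits that left out 1 library, at log2 fold changes of 0.19 to 0.24, and in 20 of 24 alternative fits in all, with adjusted p from 7.7e-04 to 0.107.

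BCL2L2 is overlapped on the same strand by a read-through gene, BCL2L2-PABPN1, which starts inside it. The read-through gene shares 14.0% of the 100-base windows of the BCL2L2 transcript, so reads could be divided between them. The read-through gene was at 59.6 ± 11.4 CPM in control and 71.4 ± 11.7 in HG (SD, n = 5 each), a log2 fold change of 0.26 with an adjusted p of 0.267 (edgeR). With the counts of both genes summed, the log2 fold change was 0.24 and the adjusted p 0.0835, which did not pass. PABPN1 itself was at −0.11 on the log2 scale (adjusted p = 0.261). PPP1R3E lies on the other strand and overlaps the span of BCL2L2, and the strand setting of the counts is not given. It was chosen after its values were seen: it went up by 0.42 on the log2 scale (adjusted p = 0.00247), with 12.2 ± 0.590 CPM in control and 16.4 ± 1.21 in HG. None of the windows of the BCL2L2 transcript used here were shared with PPP1R3E. On the deposited FPKM, where HG_1 had 11.9 and lay inside the control range of 11.3 to 12.3, limma gave BCL2L2 a log2 fold change of 0.15 on the log2(FPKM + 1) scale and an adjusted p of 0.104.

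BCL2L1 encodes BCL-XL, the pro-survival protein with the highest transcript level here (ENSG00000171552, chr20:31664452-31723989, minus strand). It was at 377, 402, 375, 360 and 372 CPM in control 1 to 5, and at 467, 392, 414, 389 and 389 CPM in HG_1 to HG_5. HG_1 was the highest of the 10, and control 2 lay above 3 of the HG libraries, so the groups overlapped. Its log2 fold change was 0.12 (SE 0.0578, 95% interval −0.0068 to 0.25) with an adjusted p of 0.20, and it did not pass. Without HG_1 it was 0.07. Of its transcript windows, 31.0% were shared with ABALON, an antisense gene that had no entry of its own in the table.

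MCL1 encodes a short-lived pro-survival protein (ENSG00000143384, chr1:150574551-150579738, minus strand). Control 1 to 5 were at 254, 211, 240, 243 and 247 CPM, and HG_1 to HG_5 at 208, 259, 245, 253 and 247. Control 2 and HG_1 were the 2 lowest libraries, and the other 8 lay between 240 and 259. The log2 fold change was 0.02 (SE 0.0687, 95% interval −0.13 to 0.17, adjusted p = 0.882), so a difference beyond 1.13-fold in either direction lay outside the interval. Its sign changed without control 2 or HG_2.

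BCL2 encodes the founding member, a pro-survival protein of the outer mitochondrial membrane (ENSG00000171791, chr18:63123346-63320128, minus strand). It was at 6.25, 6.23, 7.00, 7.44 and 7.73 CPM in control 1 to 5, and at 7.33, 8.92, 8.20, 10.6 and 7.75 CPM in HG_1 to HG_5. HG_1 fell among the control libraries, and the other 4 HG libraries lay above all control libraries. The log2 fold change was 0.30 (SE 0.116, 95% interval 0.05 to 0.56) with an adjusted p of 0.107, which did not pass although it was the largest positive value among the 10 genes.

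BAK1, the effector (ENSG00000030110, chr6:33572547-33580293, minus strand), was at 44.8, 61.0, 49.5, 46.5 and 49.2 CPM in control 1 to 5, and at 60.8, 47.2, 51.0, 48.5 and 44.9 CPM in HG_1 to HG_5. The 2 highest libraries were control 2 and HG_1, and the others of both groups covered the same range. Its log2 fold change was 0.01 (SE 0.101, 95% interval −0.22 to 0.23, adjusted p = 0.973). Its sign changed when control 1, control 4 or HG_1 was left out, over a range of −0.07 to 0.09.

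BID is the BH3-only protein that caspase-8 cleaves, which links death receptors to mitochondria (ENSG00000015475, chr22:17734138-17774770, minus strand). It was at 31.0, 32.1, 25.4, 25.9 and 25.2 CPM in control 1 to 5, and at 27.2, 24.4, 21.3, 22.1 and 23.0 CPM in HG_1 to HG_5. HG_1 lay inside the control range, and the other 4 HG libraries lay below every control library. The log2 fold change was −0.24 (SE 0.0944, 95% interval −0.45 to −0.03) with an adjusted p of 0.114, and it did not pass. Without HG_1 it was −0.29 with an adjusted p of 0.0422 (edgeR), where 2993 of all genes were called, against 2303. With HG_1 kept, BID also passed in edgeR fits with the GC and length trend removed (adjusted p = 0.0228) or with 1 surrogate variable (0.0261). Over 23 alternative fits the adjusted p of BID ran from 0.0228 to 0.240, with 5 of them past the threshold.

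BCL2L11 encodes BIM, a BH3-only protein that binds all pro-survival members and activates the effectors (ENSG00000153094, chr2:111119378-111168447, plus strand). It was at 14.3, 14.5, 16.2, 14.0 and 14.6 CPM in control 1 to 5, and at 12.4, 13.2, 14.8, 12.7 and 12.5 CPM in HG_1 to HG_5. The HG library HG_3 lay inside the control range and the other 4 lay below it. The log2 fold change was −0.16 (SE 0.0727, 95% interval −0.32 to −0.0033) with an adjusted p of 0.167, and it did not pass.

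BAD encodes a BH3-only protein that is held by 14-3-3 proteins when phosphorylated (ENSG00000002330, chr11:64269830-64284704, minus strand). It was at 40.9, 54.1, 41.4, 46 and 40.7 CPM in control 1 to 5, and at 59.2, 40.1, 40.3, 38.9 and 43.9 CPM in HG_1 to HG_5. As for BAK1, control 2 and HG_1 were the 2 highest libraries and the rest overlapped. Its log2 fold change was −0.01 (SE 0.126, 95% interval −0.28 to 0.27, adjusted p = 0.984), and it carried no stable sign: it was positive at library size alone, on the FPKM scale and in the fits without control 2, control 4, HG_2, HG_3 or HG_4. GPR137, on the other strand, shared 17.4% of the windows of BAD and was at −0.03 on the log2 scale (adjusted p = 0.910).

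PMAIP1 encodes NOXA, which binds MCL1 above all (ENSG00000141682, chr18:59899948-59904306, plus strand). It was at 13.6, 10.1, 13.5, 13.1 and 11.6 CPM in control 1 to 5, and at 10.3, 17.1, 15, 11.5 and 13.9 CPM in HG_1 to HG_5. The HG libraries were spread more widely than the control libraries, with a coefficient of variation of 20% against 12.2%, and the HG range ran past the control range at its upper end and overlapped it below. The log2 fold change was 0.13 (SE 0.142, 95% interval −0.18 to 0.45, adjusted p = 0.607). It was 0.036 without HG_2, 0.070 without control 2 and 0.22 without HG_1, and 0.057 with the GC and length trend of each library removed.

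BIK encodes a BH3-only protein found mainly at the endoplasmic reticulum (ENSG00000100290, chr22:43110748-43129712, plus strand). It had 8 to 25 counts per library, or 0.180 to 0.637 CPM, where 3 counts correspond to 0.0654 to 0.0925 CPM. At this depth its log2 fold change of −0.46 had a 95% interval of −1.42 to 0.49 (SE 0.433, adjusted p = 0.550), so neither a fall to 0.375-fold nor a rise to 1.41-fold could be told from no difference. It was −0.22 without control 1, −0.24 without control 3 and −0.74 without HG_4.

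**Figure D3:**
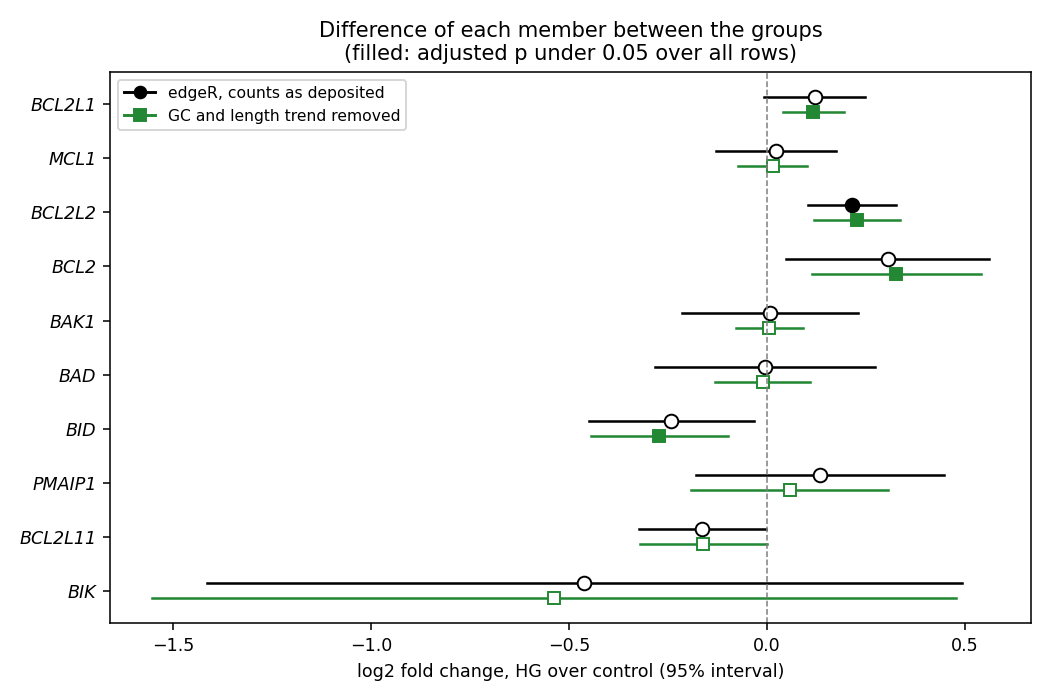
Log2 fold change (HG over control) of each gene with its 95% interval, from edgeR on the deposited counts (black circles) and with the GC and length trend of each library removed (green squares), filled where the adjusted p was under 0.05. BCL2L2 is filled in both fits, BCL2, BCL2L1 and BID in the second only, and the intervals of BAK1, BAD and MCL1 narrow around 0.

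The 10 genes span GC contents from 37.2% (PMAIP1) to 66.3% (BAD) in the longest transcript, and in the 2 libraries that stood apart they lay on both sides of the rest of their group. In HG_1, BAD was 0.54 above the mean of the other 4 HG libraries on the log2 CPM scale and BAK1 0.35 above, whereas PMAIP1 was 0.46 and MCL1 0.27 below (differences of −0.46 and −0.27). In control 2, BAK1 and BAD were each 0.36 above the other 4 control libraries, and PMAIP1 differed by −0.35. Across the 10 genes, GC content and this difference had a Pearson r of 0.839 in HG_1 and 0.507 in control 2, as a description over genes that share the library. BIK, at low counts, was the farthest from the trend in control 2 with −0.67.

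**Figure D4:**
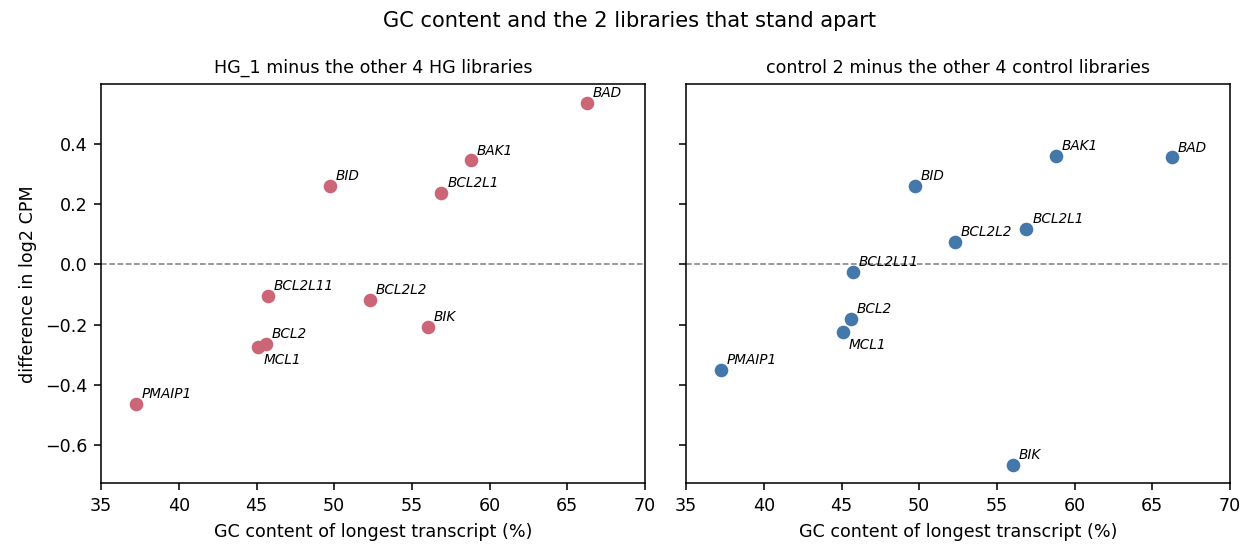
Difference in log2 CPM between a library that stood apart and the mean of the other 4 of its group, against the GC content (%) of the gene's longest transcript, for HG_1 (left) and control 2 (right), with 1 point per gene. BAD and BAK1, rich in GC, lie highest and PMAIP1, poor in GC, lies low in both panels.

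When the trend of each library with GC content and length was removed (13538 genes with both values), 4 of the 10 genes were called, beside 27.9% of all genes tested. BCL2L2 had a log2 fold change of 0.23 (SE 0.0502, adjusted p = 0.00511), BCL2 of 0.33 (SE 0.0983, adjusted p = 0.0265), BCL2L1 of 0.12 (SE 0.0355, adjusted p = 0.0285) and BID of −0.27 (SE 0.0795, adjusted p = 0.0228), all with edgeR. The fold changes of these 4 genes barely moved, and for BCL2L1 the standard error shrank from 0.0578 to 0.0355. BAK1 and BAD were at 0.01 and −0.01, with 95% intervals of −0.08 to 0.09 and −0.13 to 0.11. BCL2L11 stayed at −0.16 (adjusted p = 0.125). Over 23 alternative fits, the adjusted p ran from 0.0261 to 0.251 for BCL2 (2 past the threshold) and from 0.0215 to 0.335 for BCL2L1 (4 past it). Without control 2 and HG_1, 3 of the 10 were called, BCL2L2, BCL2L1 (0.10, adjusted p = 0.0394) and BID (−0.24, adjusted p = 0.0491), beside 27.1% of all genes. With 1 surrogate variable as a covariate, 5 of the 10 were called, BCL2L2, BCL2 (0.34), BCL2L1 (0.09), MCL1 (0.06) and BID (−0.27), beside 33% of all genes. In each of these fits the share of the whole table rose too.

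Of 15 other BCL2 family genes, 11 passed the filter, and 2 were higher and 1 lower in HG, beside 7.62% higher and 7.8% lower over all genes tested. HRK, a BH3-only gene, was at 8.22, 14.6, 16.7, 15.9 and 15.3 CPM in control 1 to 5 and at 21.4, 26.1, 23.9, 24.2 and 24.9 CPM in HG_1 to HG_5, without overlap. It rose by a log2 fold change of 0.77 (SE 0.163, adjusted p = 0.00927). BNIP3, a mitochondrial protein with a BH3-like stretch that also serves as a receptor for mitophagy, was at 56.4 to 67.0 CPM in control and 76.4 to 98.6 in HG, a rise of 0.58 (SE 0.0831, adjusted p = 0.00113). Its relative BNIP3L had a log2 fold change of 0.32 with an adjusted p of 0.0519, just outside the threshold. BOK, a relative of BAX and BAK1, was lower, with a log2 fold change of −0.33 (adjusted p = 0.0327) and means of 129 ± 14.8 and 103 ± 11.9 CPM (SD, n = 5 each), and HG_1 with 123 CPM lay inside the control range of 118 to 155.

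The partner effector BAX was at 141 ± 17.0 FPKM in control and 140 ± 23.3 in HG (SD, n = 5 each), with a log2 fold change of 0.01 (95% interval −0.26 to 0.29, adjusted p = 0.961). Per length, BAX was thus well above BAK1. BBC3, which encodes the BH3-only protein PUMA, was at 0.25 on the log2 scale (adjusted p = 0.201), with overlapping groups. BMF, another BH3-only gene, had −0.18 (adjusted p = 0.548), and BCL2L12 −0.12, BCL2L13 0.03 and BECN1, the autophagy gene whose protein holds a BH3 motif, 0.00, with adjusted p of 0.580, 0.696 and 0.977. The pro-survival genes BCL2A1 and BCL2L10, and BCL2L14 and BCL2L15, had at most 15 counts in any library and were not tested.

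Over all 8 lists of other genes of the pathway, 100 of 106 passed the filter, and 17 were higher and 6 lower in HG, or 23 in all, beside 7.62% higher and 7.8% lower over all genes tested, with a median log2 fold change of 0.000583. Downstream of the pore, 2 of 12 tested genes of the apoptosome and caspases were higher and 1 was lower. CYCS, cytochrome c itself, rose by 0.38 on the log2 scale (adjusted p = 0.00135), from 229.9 ± 13.7 to 299.6 ± 19.0 CPM (SD, n = 5 each), without overlap. AIFM1, a flavoprotein of the mitochondrial intermembrane space, rose by 0.16 (adjusted p = 0.0314). Of 8 caspase inhibitors and their antagonists, SEPTIN4 was lower (−0.47, adjusted p = 0.0270) and the others were not called. The list had 0 called without control 3, control 4, HG_2, HG_3, HG_4 or HG_5, where the number over all genes was 1648 to 1801, against 2303.

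Proteins that sit with the BCL2 family in mitochondrial or endoplasmic reticulum membranes, or bind its members, made up the list with 6 of 15 genes higher and 0 lower. Its median was 0.14, and 14 of 15 values were positive, where 7.62% of all genes tested were called higher and 50.2% were positive. SLC25A5, an adenine nucleotide carrier, rose by a log2 fold change of 0.31 (adjusted p = 0.00934). TMBIM6, a membrane protein also called BAX inhibitor 1, rose from 1021 to 1208 CPM or by 0.24 (adjusted p = 9.5e-04). BAG1, a co-chaperone that binds BCL2, rose by 0.23 (adjusted p = 0.0382), and MOAP1, a partner of BAX, by 0.23 (adjusted p = 0.0443). Of these 4, MOAP1 was the gene whose groups overlapped. When 1 library was left out, the number called in this list was 3 to 5, and the number over all genes 1648 to 2993, against 2303 with all libraries.

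Of 22 kinases, scaffolds and proteases acting on BCL2 proteins, 1 was higher, DYNLL2, a dynein light chain that tethers BMF (log2 fold change 0.20, adjusted p = 0.0133), beside 7.62% of all genes tested. The number called in this list was 7 with the GC and length trend removed, 8 without control 2 and HG_1, and 9 with 1 surrogate variable, where 27.9%, 27.1% and 33% of all genes were called. None of the 8 ubiquitin enzymes of MCL1 and BH3 proteins was called by edgeR, DESeq2 or limma-voom, and 0 had an unadjusted p under 0.05, whereas 1 was called with 1 surrogate variable. Of 7 tested death receptors and ligands, TNFRSF1A, the main TNF receptor, was lower (−0.28, adjusted p = 0.0443), and the list had 0 called in every fit that left out 1 library other than HG_1, with 1648 to 2491 called over all genes, against 2303.

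Transcription factors known to act on BCL2 family genes moved in both directions, with 6 of 17 higher and 2 lower in HG, beside 7.62% and 7.8% of all genes tested. The number called, 8 in all, was 5 without control 3, HG_3, HG_4 or HG_5, where 1648 to 1801 of all genes were called, against 2303. TRIB3, a pseudokinase of the integrated stress response grouped with them, rose by 1.27 on the log2 scale (SE 0.0932, adjusted p = 2.9e-05), from 15.1 ± 1.33 to 36.5 ± 4.32 CPM (SD, n = 5 each). DDIT3, which encodes the stress factor CHOP, rose from 23.4 ± 4.22 to 40.1 ± 6.98 CPM, by 0.78 (SE 0.144, adjusted p = 0.00441). ATF3 rose by 0.68 (SE 0.0854, adjusted p = 5.6e-04), and E2F1, a factor of cell cycle entry, was lower by the same measure with −0.63 (adjusted p = 8.0e-04), at 37.8 ± 4.5 CPM in control and 24.5 ± 1.56 in HG. In these 4 genes the groups did not overlap. Each had a larger fold change than any of the 10 BCL2 family genes.

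**Figure D5:**
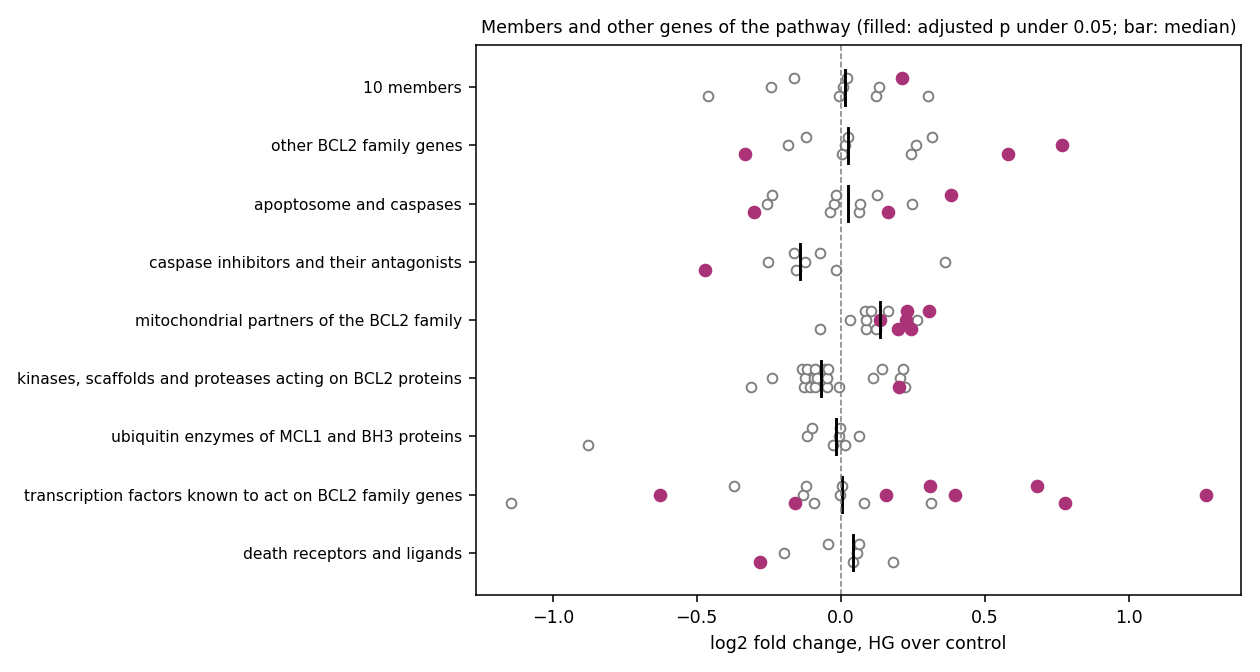
Log2 fold change (HG over control) of the 10 genes and of the tested genes of the 8 other lists, with 1 point per gene, filled where the adjusted p was under 0.05, and a bar at each list's median. The mitochondrial partners lie mostly right of 0, with a median of 0.14, and the widest spread is among the transcription factors, where TRIB3 reaches 1.27.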

How the data were processed

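RNA of 5 control and 5 HG libraries of ARPE-19 cells was extracted with Trizol and made into libraries with the VAHTS Universal V6 kit. The submitters' processing notes name fastp 0.20.1, HISAT2 2.2.1 and GRCh38. The counting program, annotation and strand setting are not given in the sources used here. The authors deposited read counts per gene and FPKM per gene, which is normalized to length and depth.

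The deposited counts were tested with edgeR 4.0.16 (R 4.3.3): genes kept by filterByExpr, TMM scaling, quasi-likelihood F-test of HG against control, and Benjamini-Hochberg adjustment over all 14936 genes tested. Log2 fold changes are HG over control, and standard errors and 95% intervals derive from the same fit. CPM are TMM-normalized. log2 CPM used a prior count of 2. The deposited FPKM served for levels between genes and, with a pseudocount of 1 or 0.1, for limma 3.58.1. Other fits used DESeq2 1.42.0, limma-voom, sva 3.50.0, other scalings and filters, a per-library lowess trend on GC content and length (span 0.3), and leaving out libraries. The edgeR, DESeq2, limma-voom, limma, sva and GC fits were tested on simulated data. Replicate pairs within a group (20) differed beyond counting noise, with a chi-square per gene of 13.8 to 78.5.

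BH3 windows, transcripts and overlaps came from GENCODE (GRCh38). The principal transcript with the longest coding sequence was used. The limit of 3 counts given for BIK covers counting error only. The members and lists were chosen with earlier results of these data known. All 10 members and all other BCL2 family genes are named. From each other list at most the 4 called genes with the largest change are named. TXNIP checks the labels, and GPR137, PPP1R3E and PABPN1 were added after their values were seen. Some genes of these lists are not reported here by name.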

Additional observations from a re-analysis of the deposited data

Results flagged for a closer look

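Over the genes named in the text and the library totals, 1 library lay far from the other 4 in 9 of 98 groups of 5 libraries checked, where chance gives about 4.9. Of these 9, 7 were control 2 or HG_1. MCL1 was at 207.7 CPM in HG_1, against 245.0 to 259.2 in the other HG libraries. BAD was at 59.2 CPM in HG_1, against 38.9 to 43.9. BAK1 was at 61.0 CPM in control 2, against 44.8 to 49.5 in the other control libraries. BOK was high in both, with 155.1 CPM in control 2 against 118.0 to 126.9, and 123.2 CPM in HG_1 against 93.1 to 100.3. ATF4, a factor of the integrated stress response, was at 325.4 CPM in control 2, against 267.1 to 277.3. The RPE marker PMEL was at 4.35 CPM in control 2, against 3.35 to 3.46. The GC content of these transcripts moved with the level in these libraries for the members, and its part in each of these values was not tested. HRK was at 8.22 CPM in control 1, against 14.6 to 16.7 in the other control libraries. BIK was at 0.486 CPM in HG_4, against 0.194 to 0.274, at 16 counts against 8 to 10.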

How the results depend on the processing

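BCL2L2 was higher in HG in every fit run, and passed the threshold except on the FPKM scale, with 0.15 (adjusted p = 0.104, pseudocount 1), 0.16 (0.107, pseudocount 0.1) and 0.15 (0.103, mean FPKM of at least 1), where 0 members were called, and when summed with the read-through gene (0.24). BAD turned positive at library size alone (0.0045) and on the FPKM scale (0.0014 in all 3 fits). One surrogate variable gave BCL2 0.34, BCL2L1 0.088, MCL1 0.061 and BID −0.27 past the threshold and turned BAK1 to −0.049, with 5 members, 43 other pathway genes and 4923 of all genes called, against 1, 23 and 2303. Without control 2 and HG_1, BCL2L1 (0.10) and BID (−0.24) passed, with 3 members, 35 others and 4035 genes. With GC content and length removed, BCL2 (0.33), BCL2L1 (0.12) and BID (−0.27) passed, with 4, 39 and 3781. Both together, chosen after seeing the data like the summed count, gave BCL2L1 0.10 and BID −0.27, with 3, 44 and 4115. DESeq2 called 29 others and 3085 genes, and limma-voom 21 and 2274. The cause of these moves was not tested.

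Leaving out 1 library gave −0.019 to 0.076 for MCL1, −0.065 to 0.089 for BAK1, −0.13 to 0.074 for BAD and −0.29 to −0.19 for BID, 1 to 2 members called, with 2 without HG_1, 13 to 26 other pathway genes, and 1648 (without HG_3) to 2993 (without HG_1) of all genes. The number of other pathway genes was 13 without HG_3 or HG_5, 14 without control 4 or HG_2, and 15 without control 3. By list, the number called was 3 to 5 for mitochondrial partners (3 without control 1, 4 or 5, HG_2, HG_3 or HG_5), 5 to 9 for transcription factors (5 without control 3, HG_3, HG_4 or HG_5), 0 to 2 for caspase inhibitors, 1 to 3 for kinases and scaffolds, and 0 or 1 for death receptors. No paired analysis was possible because the HG columns carry no replicate number that ties them to a control library. Depth limits BIK above all, at 8 to 25 counts.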
